A study of Cricetiscus sungorus with 12 samples.

Results

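Torpor was compared with normothermia in the hypothalamus of Djungarian hamsters adapted to a short photoperiod. The comparison used the 4 samples labelled SP-HT and the 4 labelled SP-NT, 8 of the 12 samples in the series, chosen by their labels and without any measured value. Each sample was the hypothalamic mRNA of 1 adult hamster, sequenced and counted per mouse Entrez GeneID. SP-HT hamsters lived under 8 h of light and 16 h of darkness and were taken during spontaneous daily torpor, with a low body temperature. SP-NT hamsters lived under the same photoperiod and were taken at normal body temperature on a day without torpor. The 4 remaining hamsters, LP-NT, had stayed under 16 h of light and 8 h of darkness at normal body temperature, and their values are shown beside the comparison without a test. All were sacrificed about 4 h after lights on (ZT 4). SP-HT held 3 males and 1 female, while SP-NT and LP-NT each held 2 males and 2 females by their labels. The counted files hold no body temperature, so hamsters are called torpid below by their label. In the study's record of body temperature at sacrifice the same replicate numbers stood in the same groups.

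Daily torpor is a controlled drop in metabolic rate and body temperature that lasts for some hours and ends with spontaneous rewarming. In the Djungarian hamster it appears after weeks of short days, together with a lower body mass and a winter coat. The hypothalamus holds the circadian clock, the centres for body temperature and energy balance, and the cells that read photoperiod.

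The expected counts of a sample summed to between 20204979 and 23018123 in SP-HT (median 21832555) and to between 22860110 and 24186918 in SP-NT (median 23941442). In LP-NT the totals lay between 21732663 and 22710560. The SP-HT totals overlapped with those of SP-NT only through SP-HT replicate 02 and SP-NT replicate 37. A single count was worth between 0.0413 and 0.0495 CPM, the unit used below for counts normalized to library size. Each file listed 17191 GeneIDs, and 996 of them had a sum of under 10 counts over the 8 samples and were not tested. A GeneID collects all hamster transcripts whose best match is the same mouse gene, so it can join isoforms and paralogs. In bulk tissue, fewer cells of a type and less RNA per cell cannot be told apart.

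The labelled tissue was checked by neuropeptide transcripts, in TPM, a level per length and library size, over the 12 samples. Avp, which encodes vasopressin, lay between 228 and 907 TPM. Sst, for somatostatin, lay between 178 and 242 TPM, and Trh, for thyrotropin-releasing hormone, between 54.1 and 112 TPM. Pomc, the precursor of melanocortins, lay between 31.3 and 147 TPM. The median over all GeneIDs was 18.4 TPM, and these 4 stood above it in every sample. Vip, for vasoactive intestinal peptide, lay around it, between 11.7 and 27.4 TPM.

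SP-NT replicate 19 went against its sex label. GeneID 20592 had between 979 and 1699 counts in the 6 other hamsters labelled male, between 2 and 5 in the 5 labelled female, and 0 in SP-NT replicate 19. GeneID 22290 had between 342 and 462 counts in those males, 0 in every female and 0 in SP-NT replicate 19. GeneID 22202 had between 163 and 728 counts in the males, between 1 and 4 in the females and 1 in SP-NT replicate 19. These 3 records were chosen after their values were seen, because they parted the other 11 hamsters by labelled sex. By these counts SP-HT held 3 males and 1 female, as labelled, and SP-NT held 1 male and 3 females, beside 2 and 2 by the labels. Sex was not balanced between the groups by the labels or by these counts, and its part in the results was not tested beyond the fits without this hamster and with labelled sex as a covariate, given at the end.

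A GeneID is called here when its adjusted p was under 0.05 in the quasi-likelihood test of edgeR, adjusted by Benjamini-Hochberg over all GeneIDs tested. A log2 fold change is SP-HT over SP-NT, so a negative value is a lower level in the hamsters labelled as torpid. Every direction below is by the labels SP-HT and SP-NT, which were not tested in the counts. The study's lists, which gave gene names, write torpor with the other sign. Names were matched on the size of the change in torpor and on the signed change of SP-NT over LP-NT. With the files as labelled, 59 of the 68 listed genes fitted 1 GeneID each in both. A match with the labels SP-HT and SP-NT exchanged was not tried, and the order of the groups was not tested further. In its record of body temperature, replicate numbers stand in the groups of their labels. Pomc averaged 12.2 CPM in SP-HT, 16.2 in SP-NT and 33.4 in LP-NT, and the melatonin-related receptor Gpr50 5.65, 4.90 and 17.5. The sizes of change printed for both between photoperiods lie nearer to SP-NT over LP-NT than to SP-HT over LP-NT. Both names were attached by printed values, so these sizes are not independent evidence. The fit was repeated with each of the 8 hamsters left out, and a GeneID described as called only without a certain hamster was called with all 8 and, among these repeats, in that one alone. Of 16195 GeneIDs tested, 389 (2.40%) were called. Of these, 82 (0.506% of those tested) were higher and 307 (1.90%) were lower in SP-HT. The median log2 fold change was 0.61 over the higher and -0.50 over the lower GeneIDs, beside 0.00 over all GeneIDs tested. Called values ran from -2.50 to 2.43. Only 41 of the 389 changed by more than 1 on the log2 scale, 15 of them higher and 26 lower, and 193 changed by less than 0.5. Every called GeneID had groups that did not overlap in CPM, as did 1964 (12.1%) of all GeneIDs tested.

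**Figure D1:**
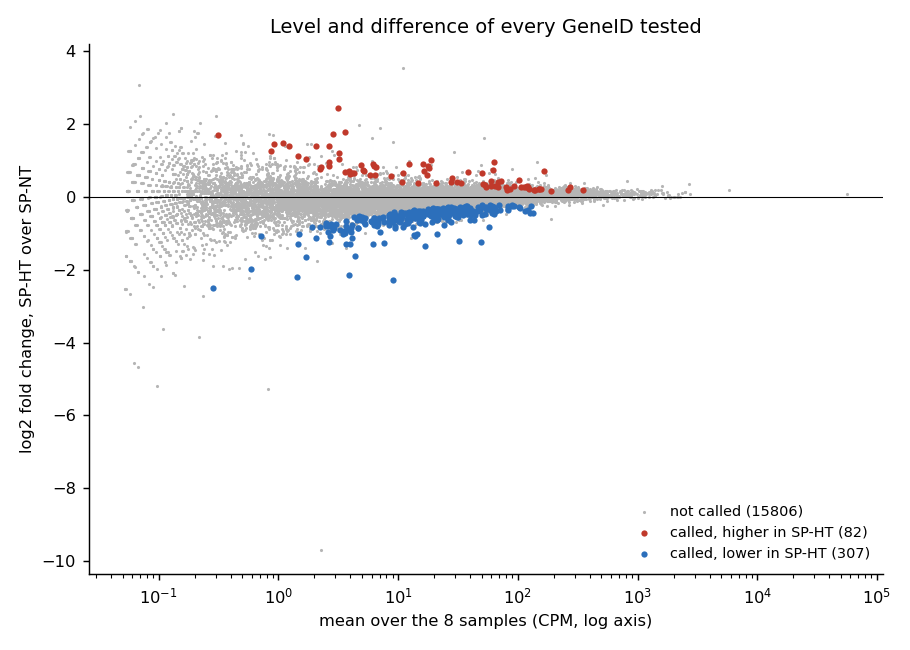
Mean level of each of the 16195 GeneIDs tested over the 8 samples (CPM, log axis) against its log2 fold change of SP-HT over SP-NT. Called GeneIDs are coloured, 82 higher and 307 lower in SP-HT, and lie between -2.50 and 2.43.

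The called GeneIDs were close to all tested GeneIDs in level and in record structure. Their median level was 17.7 CPM, beside 20.6 CPM over all tested, and the median number of transcripts joined in a GeneID was 6, beside 7. Of the called GeneIDs, 105 (27.0%) belonged to a Reactome pathway, beside 33.9% of those tested. The mean effective length of the groups, which changes when a sample uses other isoforms of a GeneID, differed by more than 1.5-fold for 7 called GeneIDs (1.80%) and for 259 of all tested (1.60%). By direction these were 4 of the higher GeneIDs (4.88%) and 3 of the lower ones (0.977%). DESeq2 with its default settings called 1017 GeneIDs (6.28%), 604 of them lower (3.73%), and these included 386 of the 389.

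The smallest adjusted p belonged to GeneID 100043257, named Rbm3-ps and described as RNA-binding protein 3-like. RBM3 is an RNA-binding protein known for rising in cooled mammalian cells. This record is only described as like it, and the gene Rbm3 itself was not among the names that could be attached. By the labels the record was lower in torpor, the opposite of that rise, and the cause was not tested. Replicates are given in the order 02, 10, 26 and 33 for SP-HT, 19, 36, 37 and 38 for SP-NT, and 01, 02, 03 and 05 for LP-NT. Rbm3-ps had 4.03, 2.51, 2.73 and 3.14 CPM in SP-HT and 16.1, 14.5, 16.6 and 13.3 CPM in SP-NT. In LP-NT it had 9.0, 15.9, 17.0 and 17.5 CPM. All 4 hamsters labelled SP-HT were far below every hamster labelled SP-NT or LP-NT. The log2 fold change was -2.28 with a standard error (SE) of 0.151 and an adjusted p of 2.14e-04 in edgeR. Rbm3-ps was called with each of the 8 hamsters left out in turn, with log2 fold changes between -2.44 and -2.19.

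GeneID 320683, which no Reactome pathway holds, came next. It had 13.2, 15, 12.8 and 14.5 CPM in SP-HT and 27.6, 27.8, 27.1 and 29.9 CPM in SP-NT. LP-NT hamsters had 28.6, 26.9, 26.8 and 27.6 CPM. SP-HT had a mean of 13.9 CPM (SD 1.06), about as far below SP-NT (28.1, SD 1.22) as below LP-NT (27.5, SD 0.824). Its log2 fold change was -1.02 (SE 0.0751, adjusted p 3.18e-04 in edgeR).

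A further 3 GeneIDs completed the 5 lower ones with the smallest p. GeneID 12747 had 36.9, 24.6, 25.4 and 31.1 CPM in SP-HT and 76.5, 63.7, 72.2 and 67.0 CPM in SP-NT. The highest torpid hamster was below the lowest normothermic one, and the log2 fold change was -1.24 (SE 0.121, adjusted p 0.00214 in edgeR). Effective length averaged 1824 bases in SP-HT against 2352 in SP-NT, and with effective lengths in the model the log2 fold change was -0.89 and still called. GeneID 212943 had 11.6, 11.6, 11.7 and 11.7 CPM in SP-HT and 19.1, 18.6, 18.6 and 20 CPM in SP-NT. The torpid hamsters were nearly equal, and the log2 fold change was -0.72 (SE 0.0697, adjusted p 0.00214 in edgeR). GeneID 104771 had 19.3, 14.6, 23.7 and 20 CPM in SP-HT and 48.5, 46.2, 42.0 and 44.1 CPM in SP-NT. In LP-NT it had 39.4, 29.7, 30.9 and 27.9 CPM, between the 2 short-photoperiod groups. Its log2 fold change was -1.22 (SE 0.121, adjusted p 0.00215 in edgeR). These 3 GeneIDs and GeneID 320683 were called with each hamster left out.

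**Figure D2:**
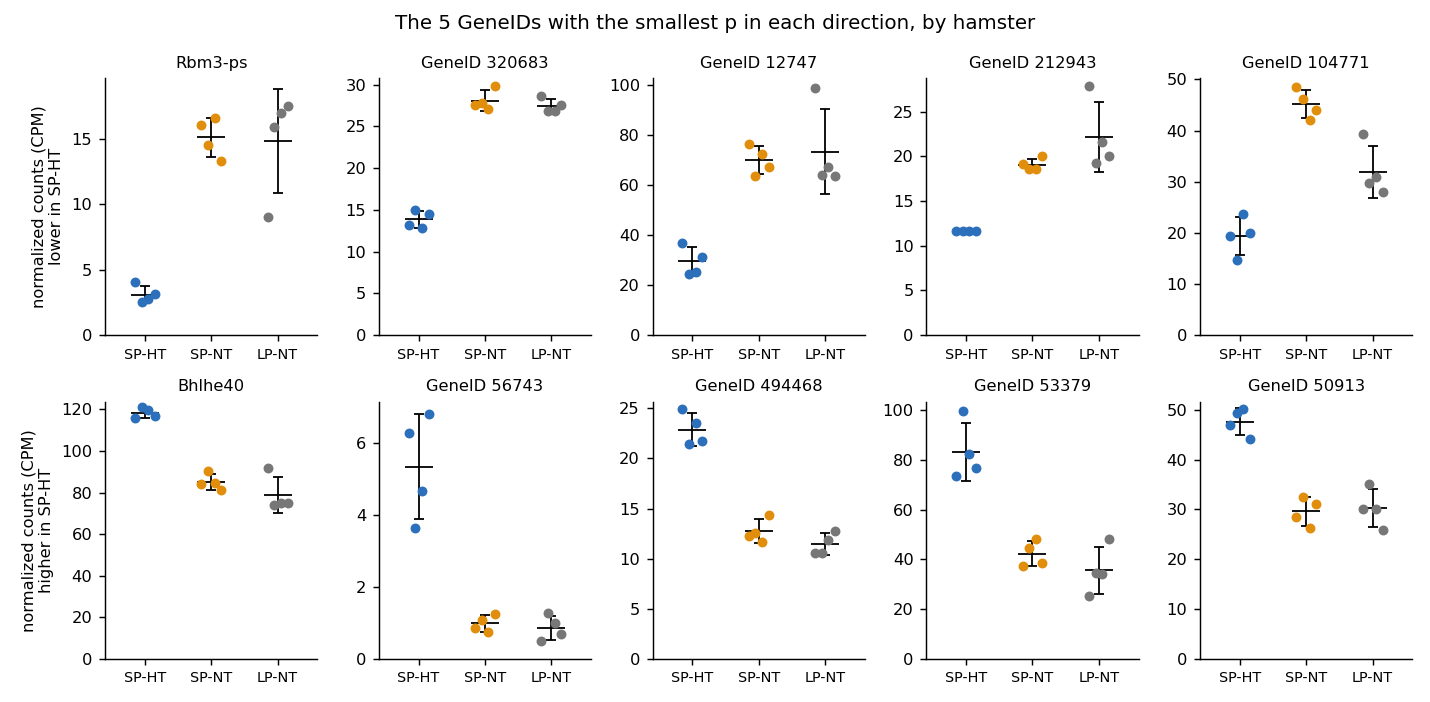
Normalized counts (CPM) of the 5 lower (top) and 5 higher (bottom) GeneIDs with the smallest p, 1 point per hamster, with mean and SD of the 4 hamsters in each of SP-HT, SP-NT and LP-NT. Rbm3-ps lies between 2.51 and 4.03 CPM in SP-HT and between 13.3 and 16.6 CPM in SP-NT.

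Other GeneIDs lower in SP-HT had few counts and large folds. GeneID 67389 had 0.350, 0.675, 0.329 and 0.686 CPM in SP-HT and 2.71, 2.00, 1.86 and 2.78 CPM in SP-NT. GeneID 100039350 had 0.482, 2.22, 1.17 and 1.86 CPM in SP-HT and 8.50, 5.0, 5.61 and 6.09 CPM in SP-NT. Neither overlapped between the groups. The log2 fold changes were -2.20 for GeneID 67389 (SE 0.286, adjusted p 0.00535 in edgeR) and -2.14 for GeneID 100039350 (SE 0.344, adjusted p 0.0129 in edgeR). The names adipolin and short coiled-coil protein-like fitted both records, and which belonged to which could not be told. GeneID 14728 had 0.657, 0.820, 1.03 and 0.735 CPM in SP-HT and 3.78, 2.75, 1.77 and 1.98 CPM in SP-NT. The SP-NT values were spread widely but all above SP-HT, with a log2 fold change of -1.66 (SE 0.280, adjusted p 0.0155 in edgeR). All 3 were called with each hamster left out, and GeneID 14728 was not called with effective lengths in the model (-1.66, adjusted p 0.0668 in edgeR).

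GeneID 65221, in Reactome a transporter of amino acids and oligopeptides, had 10.6, 7.14, 12.6 and 7.60 CPM in SP-HT. SP-NT hamsters had 25.3, 22.8, 26.2 and 21.9 CPM, so the groups were well apart, and LP-NT had a mean of 22.6 CPM (SD 1.87). The log2 fold change was -1.34 (SE 0.163, adjusted p 0.00396 in edgeR). GeneID 12774, a chemokine receptor in Reactome, had 2.98, 4.58, 2.96 and 3.97 CPM in SP-HT and 8.58, 9.82, 7.99 and 8.80 CPM in SP-NT. LP-NT had a mean of 8.86 CPM (SD 1.58), near that of SP-NT. Its log2 fold change was -1.28 (SE 0.156, adjusted p 0.00396 in edgeR). GeneID 13395 had 2.5, 2.36, 1.88 and 1.91 CPM in SP-HT and 6.41, 4.37, 4.14 and 6.05 CPM in SP-NT, again without overlap. Its log2 fold change was -1.28 (SE 0.188, adjusted p 0.00948 in edgeR). These 3 GeneIDs were called with each hamster left out.

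The remaining called GeneIDs among the 10 with the lowest log2 fold change at a mean of at least 1 CPM depended on single hamsters. GeneID 97130 had between 1.76 and 2.45 CPM in SP-HT and 5.01, 2.91, 9.71 and 8.63 CPM in SP-NT, where hamsters differed widely. The fitted log2 fold change was -1.62 (adjusted p 0.0348 in edgeR), but it was called with 1 hamster left out only when that was SP-NT replicate 36. With effective lengths in the model it was -1.17 and not called. GeneID 68927 (-1.29, adjusted p 0.0496 in edgeR) was called only without SP-HT replicate 33. GeneID 231691 (-1.29, adjusted p 0.0191 in edgeR) was called without SP-HT replicate 02 or 33 or SP-NT replicate 36 or 37, and its adjusted p reached 0.0598 in edgeR in the other fits.

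Among GeneIDs higher in SP-HT, the largest fold was that of GeneID 56743. It had 6.26, 3.62, 4.65 and 6.81 CPM in SP-HT and 0.862, 1.08, 0.734 and 1.25 CPM in SP-NT. LP-NT hamsters had 0.498, 1.26, 1.00 and 0.685 CPM. Every torpid hamster was above every normothermic one, with a log2 fold change of 2.43 (SE 0.248, adjusted p 0.00239 in edgeR). This record averaged an effective length of 4904 bases in SP-HT, against 1563 in SP-NT. With effective lengths in the model the log2 fold change was 0.78 and not called, so the counts and the effective length differed between the groups together.

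The smallest p among higher GeneIDs belonged to Bhlhe40 (GeneID 20893), which encodes a repressor of clock-controlled transcription. It had 116, 121, 119.9 and 117 CPM in SP-HT and 84.1, 90.3, 84.8 and 81.3 CPM in SP-NT. LP-NT hamsters had 92.0, 73.9, 75.1 and 75.2 CPM. Replicates were close to each other in SP-HT, and the groups did not overlap. The fitted log2 fold change was 0.47 (SE 0.0457, adjusted p 0.00214 in edgeR). GeneID 494468 had 24.9, 21.4, 23.5 and 21.7 CPM in SP-HT and 12.3, 12.6, 11.7 and 14.4 CPM in SP-NT. The lowest torpid hamster stood well above the highest SP-NT hamster, and the log2 fold change was 0.84 (SE 0.0893, adjusted p 0.00239 in edgeR).

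GeneID 53379, a member of Reactome's mRNA splicing pathway, had 73.6, 99.6, 82.6 and 76.8 CPM in SP-HT and 37.5, 44.6, 48.3 and 38.7 CPM in SP-NT. LP-NT had 25.2, 34.4, 34.2 and 48.4 CPM, which overlapped with SP-NT but not with SP-HT. The fitted log2 fold change was 0.97 (SE 0.107, adjusted p 0.00293 in edgeR). GeneID 50913 had 47.0, 49.4, 50.1 and 44.2 CPM in SP-HT and 28.5, 32.6, 26.2 and 31.1 CPM in SP-NT. The groups were apart, with a log2 fold change of 0.69 (SE 0.0773, adjusted p 0.00333 in edgeR). All 5 of these higher GeneIDs, from 56743 to 50913, were called with each hamster left out.

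GeneID 378460 had 6.35, 3.71, 3.01 and 4.56 CPM in SP-HT and 1.19, 1.04, 1.21 and 1.86 CPM in SP-NT. Torpid hamsters were all higher, with a log2 fold change of 1.73 (SE 0.266, adjusted p 0.0110 in edgeR), and it was called with each hamster left out. GeneID 240186 had 5.17, 4.73, 3.10 and 9.21 CPM in SP-HT, where SP-HT replicate 33 stood highest, and between 1.15 and 2.16 CPM in SP-NT. The fitted log2 fold change was 1.78 (SE 0.322, adjusted p 0.0201 in edgeR). It was not called without SP-NT replicate 19 (1.65, adjusted p 0.0613 in edgeR), 36 or 38, and the adjusted p then ran up to 0.0650 in edgeR. The record of GeneID 140546 (1.20, adjusted p 0.0151 in edgeR) averaged 1841 bases of effective length in SP-HT against 1054 in SP-NT. With effective lengths in the model it was 0.36 and not called, and without SP-NT replicate 19 its adjusted p was 0.0521 in edgeR.

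The other GeneIDs among the 10 with the highest log2 fold change had few counts, with means between 0.574 and 1.13 CPM in SP-NT apart from the olfactory receptor record described below. GeneID 434903 (1.39, adjusted p 0.0171 in edgeR) was called in all fits with 1 hamster left out but those without SP-HT replicate 10 and SP-NT replicate 38, where its adjusted p was at most 0.0526 in edgeR. GeneIDs 68735 (1.47), 237433 (1.40), 238323 (1.13) and 17330 (1.05) were each called in 1 of the 8 such fits, those without SP-NT replicate 37, SP-HT replicate 10, SP-HT replicate 33 and SP-HT replicate 26. GeneID 68735 is in Reactome a member of mitochondrial translation, and GeneID 17330 of inositol phosphate metabolism in the endoplasmic reticulum.

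The widest log2 fold change among GeneIDs with a mean of at least 1 CPM was not called. GeneID 331416 had 0 counts in every SP-HT hamster and 0, 0, 22 and 426 counts in SP-NT. In LP-NT it had 0, 1, 0 and 368 counts, so its counts came almost wholly from SP-NT replicate 38 and LP-NT replicate 05. Its adjusted p was 0.193 in edgeR.

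Reactome pathways place genes by the reaction or complex they belong to. Of 5491 tested GeneIDs in at least 1 pathway, 105 (1.91%) were called, 27 (0.492%) higher and 78 (1.42%) lower. There were 709 pathways with between 15 and 250 tested members, many of them nested in each other. Of these, 373 had no called member in edgeR and 192 had 1. A pathway is described as strong below when it was among the 5 with the highest share of called members in a direction, with at least 2 called, after pathways that shared most of these members with a stronger one were passed over. In addition, 32 pathways were chosen by title.

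Cholesterol biosynthesis had the highest share of lower members. The enzymes of this pathway turn acetyl units into lanosterol and then cholesterol, and their transcription is driven by the SREBP factors, which are released when sterols are low. Of 22 tested members 4 (18.2%) were lower and 0 were higher in edgeR, where 13 members had an unadjusted p under 0.05 in either direction. Over all GeneIDs tested 2976 of 16195 (18.4%) were under that value in edgeR, the background for all such counts below. DESeq2 called 8 lower and 0 higher. The median log2 fold change was -0.18, and 21 of the 22 values were below 0. That number was 19 with DESeq2's default settings, with median-of-ratios factors or without SP-NT replicate 19, and 22 with an effective length offset, which ended the call of 2 of the 4 called members, GeneIDs 15490 (adjusted p 0.0706 in edgeR) and 235293 (0.0874).

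GeneID 20775 had 60.4, 63.4, 58.3 and 64.7 CPM in SP-HT and 73.7, 80.6, 80.4 and 83.2 CPM in SP-NT. The groups did not overlap, with a log2 fold change of -0.37 (SE 0.0570, adjusted p 0.0114 in edgeR). It was called with each hamster left out and was the only one of the 4 called without SP-NT replicate 19 (-0.40, adjusted p 0.0199 in edgeR). GeneID 15357 had 108, 129.6, 106 and 115 CPM in SP-HT and 167, 142, 151 and 161 CPM in SP-NT. SP-HT replicate 10 came closest to the SP-NT hamsters but stayed below them. The estimate was a log2 fold change of -0.44 (SE 0.0716, adjusted p 0.0137 in edgeR), with an adjusted p of 0.0510 in edgeR without SP-NT replicate 19 and 0.0534 without SP-NT replicate 38.

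GeneID 15490 had 6.35, 8.30, 8.60 and 7.06 CPM in SP-HT and 10.7, 11.7, 12.3 and 10.0 CPM in SP-NT. Its log2 fold change of -0.56 (SE 0.121, adjusted p 0.0399 in edgeR) was the lowest in the pathway. It was called in none of the fits with 1 hamster left out, where its adjusted p ran from 0.0531 to 0.104 in edgeR. GeneID 235293 had 113, 127, 119.6 and 111 CPM in SP-HT and 133, 152, 139 and 139 CPM in SP-NT. The groups lay apart, though by little, with a log2 fold change of -0.26 (SE 0.0574, adjusted p 0.0425 in edgeR). The call held only without SP-HT replicate 10, and its adjusted p without SP-NT replicate 19 was 0.0645 in edgeR. The values of the 4 called members fell to between -0.56 and -0.26, beside 0.04 for the highest member, GeneID 98386.

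Outside the enzymes, GeneID 18044 is in Reactome a member of gene activation by SREBP. It had 7.79, 9.41, 8.18 and 9.26 CPM in SP-HT and 13.1, 15.2, 13.5 and 15.8 CPM in SP-NT. LP-NT hamsters had 18.6, 13.8, 12.3 and 14.9 CPM, all above SP-HT. The estimate was a log2 fold change of -0.73 (SE 0.104, adjusted p 0.00716 in edgeR), and it was called with each hamster left out.

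**Figure D3:**
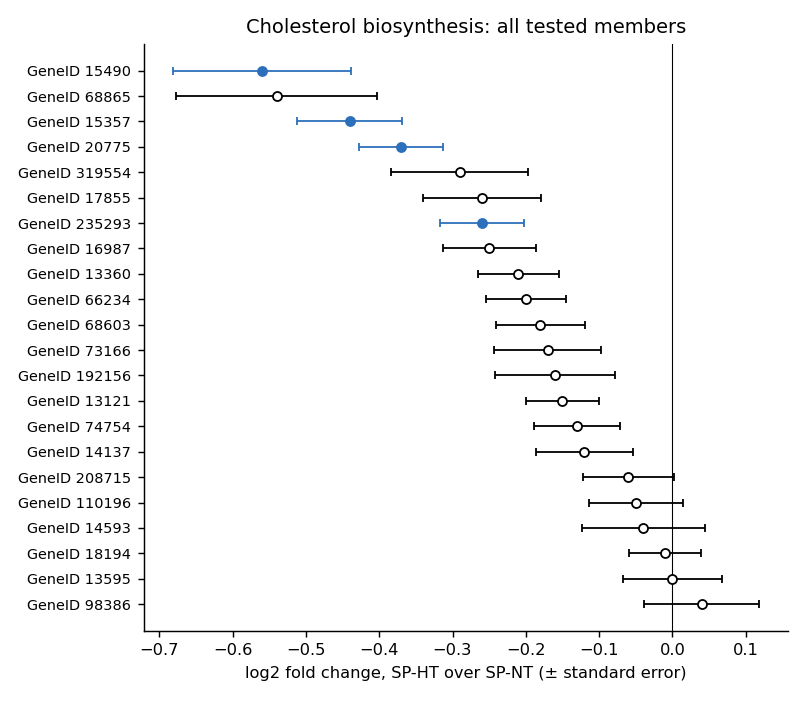
Log2 fold change of SP-HT over SP-NT, with its standard error, for the 22 tested members of Reactome's cholesterol biosynthesis pathway, filled where called. The 4 called members lie between -0.56 and -0.26, and 21 of the 22 values are below 0, or 19 with median-of-ratios factors.

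The circadian clock turns on a loop in which Clock and Bmal1 activate the Per and Cry genes, whose proteins then repress them. Of 28 tested members of Reactome's circadian clock pathway 2 were higher and 1 lower (10.7% in all), beside 4 higher and 1 lower in DESeq2. A nested set, gene activation by Bmal1 and Clock, was the strong pathway with the second highest share of higher members, 2 of 15 (13.3%), namely Bhlhe40 and GeneID 79362, beside 1 lower, Per2. GeneID 79362 had 121, 137, 145 and 121 CPM in SP-HT and 111, 111, 102 and 102 CPM in SP-NT. The groups were apart, with a log2 fold change of 0.30 (SE 0.0663, adjusted p 0.0447 in edgeR). It was called only without SP-HT replicate 02 or 33.

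Per2 was the clock member that fell. It had 33.6, 36.5, 29.1 and 36.6 CPM in SP-HT and 45.1, 41.5, 50.5 and 53.1 CPM in SP-NT, while LP-NT lay between 36.3 and 40.5 CPM. SP-HT hamsters were all below SP-NT hamsters, and LP-NT lay between the 2 groups except for its overlap at 36.3 CPM with the highest SP-HT hamsters. The log2 fold change was -0.49 (SE 0.0965, adjusted p 0.0292 in edgeR). It was called only without SP-HT replicate 33 or SP-NT replicate 36, and it was -0.51 without SP-NT replicate 19 (adjusted p 0.0588 in edgeR). Effective length averaged 4422 bases in SP-HT against 5241 in SP-NT, and with effective lengths in the model the log2 fold change was -0.25 and not called.

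Other genes of the loop were not called. Per1 overlapped between the groups, with 79.4, 74.4, 54.8 and 74.0 CPM in SP-HT and 61.6, 51.0, 66.0 and 65.3 CPM in SP-NT (0.21, adjusted p 0.359 in edgeR). Per3 was at -0.14 (adjusted p 0.551 in edgeR), Bmal1 at 0.08 (0.418) and Cry1 at 0.05 (0.688). Id2, an inhibitor of helix-loop-helix factors, was just outside the threshold at 0.43 (adjusted p 0.0510 in edgeR and 0.00407 in DESeq2), with groups that did not overlap. Pml, which the study lists with clock genes, had between 5.73 and 6.27 CPM in SP-HT and between 7.88 and 10.1 CPM in SP-NT. It was lower at -0.54 (adjusted p 0.0355 in edgeR), and with 1 hamster left out it was called only without SP-NT replicate 37.

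Of the immediate early genes, whose transcripts rise within minutes of neuronal activity, Jun was called and Fos was not. Jun had 67.5, 70.9, 65.2 and 71.6 CPM in SP-HT and 47.8, 55.3, 52.6 and 47.2 CPM in SP-NT. LP-NT hamsters had 57.6, 55.0, 53.2 and 56.0 CPM. Torpid hamsters were above all 8 others, and the log2 fold change against SP-NT was 0.44 (SE 0.0649, adjusted p 0.00948 in edgeR). It was called with each hamster left out. Fos had 4.99, 6.03, 5.36 and 6.08 CPM in SP-HT and 7.02, 5.66, 4.75 and 4.52 CPM in SP-NT. Its groups overlapped (0.03, SE 0.155, adjusted p 0.944 in edgeR), and LP-NT ran from 2.69 to 26.9 CPM. Junb was at -0.04 (adjusted p 0.873 in edgeR) and Fosb at 0.08 (0.902).

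Oxygen-dependent proline hydroxylation of hypoxia-inducible factor was a strong pathway with 2 of 18 members higher (11.1%). Egln1 (GeneID 112405) encodes a hydroxylase that marks the factor for degradation when oxygen is present. It had 3.11, 2.85, 2.49 and 3.19 CPM in the hamsters labelled SP-HT and 1.44, 1.83, 1.55 and 1.78 CPM in those labelled SP-NT. Its groups did not overlap, and LP-NT lay between 1.46 and 1.74 CPM. The log2 fold change was 0.81 (SE 0.164, adjusted p 0.0312 in edgeR), called with 1 hamster left out only when that was SP-HT replicate 26. Effective length averaged 1016 bases in SP-HT against 1987 in SP-NT, and with effective lengths in the model the value was 1.99 and called. GeneID 73318, the other called member, had between 4.63 and 5.65 CPM in SP-HT and between 3.12 and 3.54 CPM in SP-NT (0.66, adjusted p 0.0258 in edgeR). The call held only without SP-HT replicate 10, and with effective lengths in the model it was 0.49 and not called.

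Glucose enters neurons mainly through Glut3 and crosses the blood-brain barrier through Glut1. Glut3 had 73.9, 88.7, 84.6 and 80.0 CPM in SP-HT and 97.0, 100.0, 97.2 and 95.1 CPM in SP-NT. SP-HT was lower without overlap, at -0.25 (SE 0.0576, adjusted p 0.0485 in edgeR), and the call held only without SP-HT replicate 10 when 1 hamster was left out. Glut1 had 139, 151, 146 and 135 CPM in SP-HT and 134, 133, 117 and 129 CPM in SP-NT. Its groups did not overlap either, but it was not called (0.15, adjusted p 0.182 in edgeR).

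Reactome's heat stress pathway had 2 lower members of 70 tested (2.86%), GeneIDs 269966 and 69482, while DESeq2 called 4 higher and 4 lower. Both are in Reactome components of the nuclear pore complex, through which mRNA leaves the nucleus. GeneID 269966 had 49.5, 56.8, 49.5 and 52.0 CPM in SP-HT and 67.4, 67.1, 68.7 and 75.5 CPM in SP-NT. The groups were apart at -0.43 (SE 0.0634, adjusted p 0.00948 in edgeR), and -0.23 and not called with effective lengths in the model. GeneID 69482 had 11.1, 12.6, 13.3 and 12.2 CPM in SP-HT and 18.8, 17.0, 17.6 and 17.2 CPM in SP-NT. All torpid hamsters were lower, at -0.52 (SE 0.0825, adjusted p 0.0124 in edgeR). Both were called with each hamster left out.

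In mRNA splicing, 1 of 115 tested members was higher, GeneID 53379, and 1 was lower (1.74% in all), beside 8 higher and 3 lower in DESeq2. The lower member, GeneID 83486, had 119, 95.4, 106 and 104 CPM in SP-HT and 144, 137, 147 and 154 CPM in SP-NT. The highest torpid hamster, SP-HT replicate 02, was still below every SP-NT hamster. The log2 fold change was -0.45 (SE 0.0673, adjusted p 0.00948 in edgeR), and it was called with each hamster left out.

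Of 172 tested members of chromatin modification 4 (2.33%) were lower and 0 were higher in edgeR, while DESeq2 called 8 lower and 4 higher and 35 members had an unadjusted p under 0.05. GeneID 75605, a histone demethylase in Reactome, had 58.2, 58.3, 51.6 and 62.3 CPM in SP-HT and 72.6, 71.5, 73.8 and 72.5 CPM in SP-NT. SP-NT hamsters were nearly equal and all higher, with a log2 fold change of -0.34 (SE 0.0603, adjusted p 0.0199 in edgeR). It was called without SP-HT replicate 02, 26 or 33 or SP-NT replicate 37, and its adjusted p was 0.0564 in edgeR without SP-NT replicate 19. GeneIDs 208043 (-0.40, a histone lysine methylation member), 238247 (-0.29, a histone deacetylation member) and 66262 (-0.57, a histone acetylation member) were called in 3, 2 and 1 of the 8 fits with 1 hamster left out, none of them the fit without SP-NT replicate 19. RNA polymerase II transcription had 1 lower member of 101 tested (GeneID 74197, -0.32), and generic transcription 1 of 167 (GeneID 70208, -0.43). DESeq2 called 1 higher and 5 lower in the former and 5 higher and 3 lower in the latter. They were called in 0 and 3 of the 8 fits with 1 hamster left out, with an adjusted p between 0.0656 and 0.102 in edgeR for GeneID 74197.

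**Figure D4:**
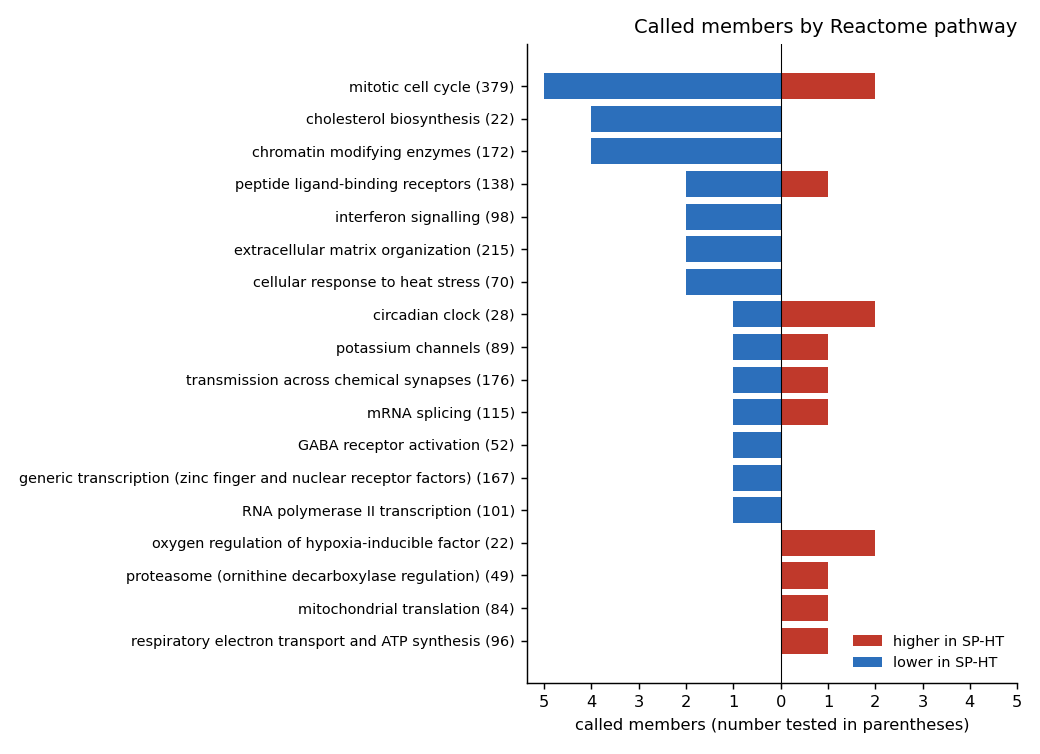
Number of called members, higher (right) and lower (left) in SP-HT, for those of the 32 Reactome pathways chosen by title that had any, with the number tested in parentheses. Cholesterol biosynthesis has 4 lower of 22 tested and mitotic cell cycle 5 lower and 2 higher of 379.

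The highest share of higher members among the strong pathways belonged to olfactory signalling, with 3 of 22 (13.6%). A GeneID of this large receptor family can join paralogs. GeneID 258469 had 23.2, 21.8, 18.8 and 19.8 CPM in SP-HT and 12, 10.0, 12.6 and 10.2 CPM in SP-NT. Torpid hamsters were clearly higher, at 0.90 (SE 0.103, adjusted p 0.00363 in edgeR). GeneID 258922 had 3.63, 3.18, 4.14 and 4.56 CPM in SP-HT and 0.986, 1.42, 1.94 and 1.53 CPM in SP-NT. Here too the groups were apart, at 1.40 (SE 0.214, adjusted p 0.0109 in edgeR). Both were called with each hamster left out. GeneID 258470 (0.79, adjusted p 0.0292 in edgeR) had between 19.1 and 26.5 CPM in SP-HT and between 9.68 and 15.9 CPM in SP-NT. The call held only without SP-HT replicate 26 or SP-NT replicate 37, and its adjusted p without SP-NT replicate 19 was 0.0518 in edgeR.

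Kinesins, motors that carry cargo along microtubules, had 2 of 20 members higher (10.0%). GeneID 16551 had 18.2, 17.5, 15.6 and 12.6 CPM in SP-HT and 9.16, 11.9, 6.0 and 7.10 CPM in SP-NT. The lowest torpid hamster was only just above the highest SP-NT hamster, at 0.91 (SE 0.195, adjusted p 0.0394 in edgeR), and the call held only without SP-HT replicate 33 or SP-NT replicate 36. GeneID 16578 had between 5.35 and 7.70 CPM in SP-HT and between 3.19 and 4.20 CPM in SP-NT (0.74, adjusted p 0.0328 in edgeR). It was called only without SP-HT replicate 10 or 33.

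The last strong pathway in the higher direction, degradation of the cell cycle inhibitors p27 and p21, had 2 of 51 members higher (3.92%). GeneID 26446, a proteasome subunit, had 7.44, 7.52, 8.22 and 10.5 CPM in SP-HT and 5.34, 4.79, 4.36 and 4.60 CPM in SP-NT. It was higher in all torpid hamsters, at 0.82 (SE 0.139, adjusted p 0.0157 in edgeR), and lost its call without SP-NT replicate 38 (adjusted p 0.0548 in edgeR) and with effective lengths in the model (0.56). GeneID 26965 had 204, 198, 200.5 and 195 CPM in SP-HT and 177, 172, 179 and 180.2 CPM in SP-NT. Its small difference of 0.17 (SE 0.0386, adjusted p 0.0477 in edgeR) was called in none of the fits with 1 hamster left out, with an adjusted p between 0.0554 and 0.137 in edgeR.

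Potassium channels set the excitability of neurons. Of 89 tested members 1 was higher and 1 was lower (2.25% in all), beside 6 higher and 1 lower in DESeq2. GeneID 16518, an inward rectifier in Reactome, had 5.60, 5.26, 4.98 and 5.15 CPM in SP-HT and 7.27, 9.37, 8.20 and 8.71 CPM in SP-NT. Torpid hamsters were all lower, at -0.68 (SE 0.114, adjusted p 0.0151 in edgeR), and only leaving out SP-NT replicate 38 ended the call (adjusted p 0.0544 in edgeR). GeneID 16485, a voltage-gated channel, had 194, 197, 272 and 161 CPM in SP-HT and 131, 139.6, 132 and 101 CPM in SP-NT. SP-HT replicate 26 stood highest, the groups did not overlap, and the log2 fold change was 0.71 (SE 0.147, adjusted p 0.0342 in edgeR). The call held only without SP-HT replicate 26 or 33.

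Transmission across chemical synapses had 1 higher and 1 lower member of 176 tested (1.14%), while DESeq2 called 12 higher and 1 lower. The lower one was GeneID 16518. The higher one, GeneID 53623, belongs to AMPA receptor activation, with 78.4, 78.2, 77.3 and 67.4 CPM in SP-HT and 58.8, 64.9, 64.2 and 60.7 CPM in SP-NT. SP-HT replicate 33 stood apart from its group and near SP-NT, and the log2 fold change was 0.28 (SE 0.0623, adjusted p 0.0471 in edgeR). The call held only without that hamster, and with effective lengths in the model the value was -0.03 and not called. Of 138 tested peptide-binding receptors 1 was higher and 2 lower (2.17%), beside 2 and 4 in DESeq2, the lower ones in edgeR being GeneID 12774 and GeneID 72103. GeneID 72103 had between 7.38 and 9.54 CPM in SP-HT and between 11.7 and 13.2 CPM in SP-NT (-0.60, adjusted p 0.0164 in edgeR, 0.0537 without SP-NT replicate 19 and 0.0566 without SP-NT replicate 38). GeneID 242093, in Reactome under relaxin receptors, was higher (0.65, adjusted p 0.0302 in edgeR) and called only without SP-HT replicate 33.

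Activation of IRF7 through TRAF6, a step of the interferon response, had 2 of 16 members lower (12.5%). GeneID 66641 had 20.4, 24.2, 23.4 and 19.9 CPM in SP-HT and 33.5, 30.0, 30.3 and 30.2 CPM in SP-NT. Torpid hamsters were all lower, at -0.50 (SE 0.0776, adjusted p 0.0119 in edgeR), with each hamster left out as well. GeneID 228607 had 11.2, 11, 11.4 and 12 CPM in SP-HT and 17.2, 14.6, 16.7 and 15.3 CPM in SP-NT. It was lower at -0.49 (SE 0.0843, adjusted p 0.0173 in edgeR) and not called without SP-HT replicate 10 or SP-NT replicates 19 or 38, with an adjusted p of at most 0.0564 in edgeR. Interferon signalling itself had 2 lower of 98 tested (2.04%), beside 1 higher and 2 lower in DESeq2. The 2 in edgeR were Pml and GeneID 20821 (-0.64, adjusted p 0.0282 in edgeR), the latter called only without SP-NT replicate 37.

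Signal transfer to the nucleus by activated NOTCH1 had 3 of 25 members lower (12%). GeneID 13388 had between 8.48 and 9.74 CPM in SP-HT and between 11.5 and 12.7 CPM in SP-NT (-0.41, adjusted p 0.0363 in edgeR). GeneID 18222 had between 27.6 and 33.1 CPM in SP-HT and between 36.6 and 40.9 CPM in SP-NT (-0.35, adjusted p 0.0292 in edgeR). GeneID 226548 had 14.0, 19.5, 17.4 and 15.9 CPM in SP-HT and 32.2, 22.1, 23.5 and 25.9 CPM in SP-NT. SP-NT replicate 19 stood highest in the last, whose log2 fold change was -0.64 (adjusted p 0.0332 in edgeR) and -0.51 without it (adjusted p 0.0738 in edgeR). GeneIDs 13388, 18222 and 226548 were called in 0, 1 and 3 of the 8 fits with 1 hamster left out, with an adjusted p of up to 0.104 in edgeR for GeneID 13388.

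Repair of abasic sites in DNA had 3 of 30 members lower (10.0%). GeneID 21665 had 33.0, 35.2, 34.2 and 35.5 CPM in SP-HT and 43.6, 43.2, 41.9 and 45.5 CPM in SP-NT. Replicates were tight and the groups apart, at -0.34 (SE 0.0552, adjusted p 0.0137 in edgeR), and only leaving out SP-NT replicate 38 ended the call (adjusted p 0.0506 in edgeR). GeneID 67967 had 12.3, 11.8, 11.1 and 12.4 CPM in SP-HT and 16.7, 16.0, 16.4 and 16.0 CPM in SP-NT. It was lower at -0.45 (SE 0.0746, adjusted p 0.0145 in edgeR) and not called without SP-NT replicate 19 (adjusted p 0.0521 in edgeR) or 38. GeneID 71726 (-0.47, adjusted p 0.0318 in edgeR) was called only without SP-HT replicate 02.

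Mitochondrial biogenesis had 2 of 19 members lower (10.5%) and 1 higher. GeneID 170826 had 27.3, 26.3, 25.6 and 24.5 CPM in SP-HT and 31.2, 38.6, 41.7 and 39.3 CPM in SP-NT. SP-NT replicate 19 lay closest to the torpid hamsters. The log2 fold change was -0.54 (SE 0.0895, adjusted p 0.0145 in edgeR), it was -0.62 without that hamster, and the call was lost only without SP-NT replicate 38 (adjusted p 0.0506 in edgeR). GeneID 226169 had between 25.7 and 30.2 CPM in SP-HT and between 33.6 and 39.4 CPM in SP-NT (-0.41, adjusted p 0.0219 in edgeR). It was called only without SP-HT replicate 33 or SP-NT replicate 36. The higher member, GeneID 15278, had few counts, with at most 0.588 CPM in SP-HT and 0.205 CPM in SP-NT (1.69, adjusted p 0.0462 in edgeR), and was called in none of the fits with 1 hamster left out. Respiratory electron transport had 1 higher member of 96 tested, GeneID 226646, with 161, 167, 178 and 169 CPM in SP-HT and 147, 148, 146 and 140.0 CPM in SP-NT. Its groups were apart by little, at 0.21 (SE 0.0446, adjusted p 0.0350 in edgeR), and it was called only without SP-HT replicate 02. DESeq2 called 3 higher and 0 lower members there. Of the 96 values in this pathway, 72 were above 0 and 24 below, with a median of 0.07.

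In the mitotic cell cycle 5 of 379 tested members were lower and 2 higher (1.85% in all), beside 12 lower and 14 higher in DESeq2, and 5 of the 7 in edgeR are described above. GeneID 226747, one of the others, had 53.6, 53.7, 49.1 and 48.6 CPM in SP-HT and 65.8, 63.9, 62.6 and 70.4 CPM in SP-NT. Its groups were apart at -0.36 (SE 0.0592, adjusted p 0.0145 in edgeR), with 0.0503 in edgeR without SP-NT replicate 19 and 0.0506 without SP-NT replicate 38. GeneID 77805 had between 17.5 and 22.7 CPM in SP-HT and between 24.7 and 28.4 CPM in SP-NT (-0.44, adjusted p 0.0351 in edgeR), with a call only without SP-HT replicate 10 when 1 hamster was left out. Extracellular matrix organization had 2 lower members of 215 tested (0.930%), beside 2 higher and 6 lower in DESeq2. GeneID 216760, of elastic fibres, had 0.788, 1.93, 1.55 and 2.06 CPM in SP-HT and 4.39, 3.33, 3.71 and 3.31 CPM in SP-NT. All torpid hamsters were lower, at -1.23 (SE 0.254, adjusted p 0.0346 in edgeR), but the value was -0.53 and not called with effective lengths in the model. It was called only without SP-HT replicate 02 or 33, and its adjusted p was 0.0942 in edgeR without SP-NT replicate 19. GeneID 56401, of collagen synthesis, was lower at -0.35 (adjusted p 0.0424 in edgeR) and called in none of the fits with 1 hamster left out.

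Several pathways of energy use had 0 called members in edgeR. Over all tested GeneIDs in a pathway 1.91% were called, a share at which small sets often hold 0. Glycolysis had 0 of 26, with 4 at an unadjusted p under 0.05 and 1 called higher by DESeq2. Of its log2 fold changes, 17 were above 0 and 9 below. Pyruvate metabolism and the citric acid cycle had 0 of 41 in edgeR, with 8 at an unadjusted p under 0.05 and 4 called by DESeq2. These 4 were 3 higher and 1 lower, and 30 of the 41 values were above 0 and 11 below. Fatty acid, triacylglycerol and ketone body metabolism had 0 of 84 in edgeR, with 14 at an unadjusted p under 0.05 and 4 called by DESeq2. These were 2 higher and 2 lower, and 47 of the 84 values were above 0 and 37 below. Insulin receptor signalling had 0 of 102 in edgeR, with 20 at an unadjusted p under 0.05. DESeq2 called 6 of its members higher and 1 lower, and 62 values were above 0 and 40 below. For mTOR signalling the numbers were 0 of 25 in edgeR, 6 at an unadjusted p under 0.05 and 3 higher in DESeq2. There 16 values were above 0 and 9 below. Purine metabolism had 0 of 32 in edgeR, with 5 at an unadjusted p under 0.05 and 1 called higher by DESeq2. Its values were above 0 for 16 members and below for 16. Median log2 fold changes of these pathways lay between 0.01 and 0.08, beside 0.00 over all GeneIDs tested. Whether any of them shifted as a set was not tested.

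The same held for several pathways of protein folding and synthesis. Chaperonin-mediated folding had 0 of 28 called in edgeR, with 2 at an unadjusted p under 0.05 and 0 called by DESeq2. Of its log2 fold changes, 23 were above 0 and 5 below, with a median of 0.06. The unfolded protein response had 0 of 15 in edgeR, with 4 at an unadjusted p under 0.05 and 0 called by DESeq2. There 11 values were above 0 and 4 below. Peptide chain elongation, mostly ribosomal proteins, had 0 of 98 in edgeR, with 14 at an unadjusted p under 0.05 and 5 called by DESeq2. These 5 were 4 higher and 1 lower. Of the 98 values, 72 were above 0 and 26 below, with a median of 0.06. Detoxification of reactive oxygen species had 0 of 24 in edgeR, with 2 at an unadjusted p under 0.05 and 0 called by DESeq2. Here 9 values were above 0 and 15 below. For 3' end processing of mRNA the numbers were 0 of 32 in edgeR, 7 at an unadjusted p under 0.05 and 2 lower in DESeq2. For export of spliced mRNA they were 0 of 23, 7 and 1 lower. Values above and below 0 numbered 17 and 15 in the former and 12 and 11 in the latter. Peptide hormone metabolism had 0 of 40 in edgeR, with 9 at an unadjusted p under 0.05 and 3 called higher by DESeq2. Its values were above 0 for 19 members and below for 21. These splits by sign were not tested either.

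The study lists genes that mark known paths of photoperiod and torpor control, and 59 of them could be matched to a GeneID. Of these, 2 were higher (Jun and Bhlhe40) and 3 lower (Per2, Pml and Glut3) in edgeR by the sample labels. DESeq2 called these and also Id2, Npy and the protein phosphatase gene Ppp1cc (adjusted p 0.0186 in DESeq2) as higher. It called Sstr1 (adjusted p 0.00999 in DESeq2) as lower. The median log2 fold change over the 59 was -0.06, beside 0.00 over all GeneIDs tested. Groups did not overlap for 12 of the 59, a larger share than the 12.1% over all GeneIDs tested. The share called in edgeR was also larger than the 2.40% over all GeneIDs tested. Neither difference was tested. The 10 genes of thyroid hormone signalling had log2 fold changes between -0.84 and 0.15, and the 6 growth genes, somatostatin and its receptors, between -0.33 and -0.06. Sstr1, the growth gene with the smallest adjusted p, had 24.3, 22.4, 25.3 and 23.2 CPM in SP-HT and 26.6, 31.3, 29.2 and 32.2 CPM in SP-NT. Its groups did not overlap (-0.33, SE 0.0765, adjusted p 0.0540 in edgeR), and LP-NT was higher still, with a mean of 36.5 CPM (SD 3.17).

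Of the feeding peptides, Npy, which stimulates food intake, had 16.6, 14.2, 18.7 and 22.7 CPM in SP-HT and 11.3, 11.9, 10.2 and 16.3 CPM in SP-NT. SP-NT replicate 38 lay within the range of SP-HT, and Npy was not called (0.53, SE 0.169, adjusted p 0.125 in edgeR and 0.0340 in DESeq2). LP-NT lay between 16.6 and 20.9 CPM. Pomc had 12.9, 13.1, 12.2 and 10.6 CPM in SP-HT and 20.3, 16.2, 11.4 and 16.7 CPM in SP-NT. SP-NT replicate 37 lay within the SP-HT range (-0.40, SE 0.151, adjusted p 0.186 in edgeR), and without it Pomc was called, with an adjusted p of 0.0491 in edgeR. LP-NT hamsters had between 24.8 and 52.4 CPM of Pomc.

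The number of called GeneIDs depended on single hamsters. With 1 hamster left out it ran from 104 without SP-NT replicate 38 to 318 without SP-HT replicate 33. Of the 389 GeneIDs, 92 were called in all 8 of these fits, 14 higher and 78 lower, and 67 in none. Without SP-NT replicate 19, whose counts went against its sex label, 124 of 16108 GeneIDs tested (0.770%) were called, and 116 of them were among the 389. With labelled sex as a covariate 242 GeneIDs were called, 58 higher and 184 lower, of which 227 were among the 389. With effective lengths as an offset 147 were called, of which 128 were among the 389. These settings were compared for 75 of the called GeneIDs named above. Of the 75, 35 were called with the effective length offset, 54 with labelled sex as a covariate and 61 in DESeq2 with effective lengths. These counts, and the lost calls listed next, leave out called GeneIDs that were chosen after their values were seen. Beside the calls given above as lost, the offset ended those of Glut3, Pml and GeneIDs 68735, 237433, 238323, 17330, 16551, 258470, 16578, 16485, 242093, 79362, 226646, 26965, 238247, 74197, 18222, 56401, 226747, 208043, 226169, 13388, 70208, 66262, 226548, 20821, 231691 and 68927. No GeneID called both among the 389 and in one of these settings changed sign between them. GeneID 53623 was at -0.03 with the offset and in DESeq2 with effective lengths, and was called in neither.

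**Figure D5:**
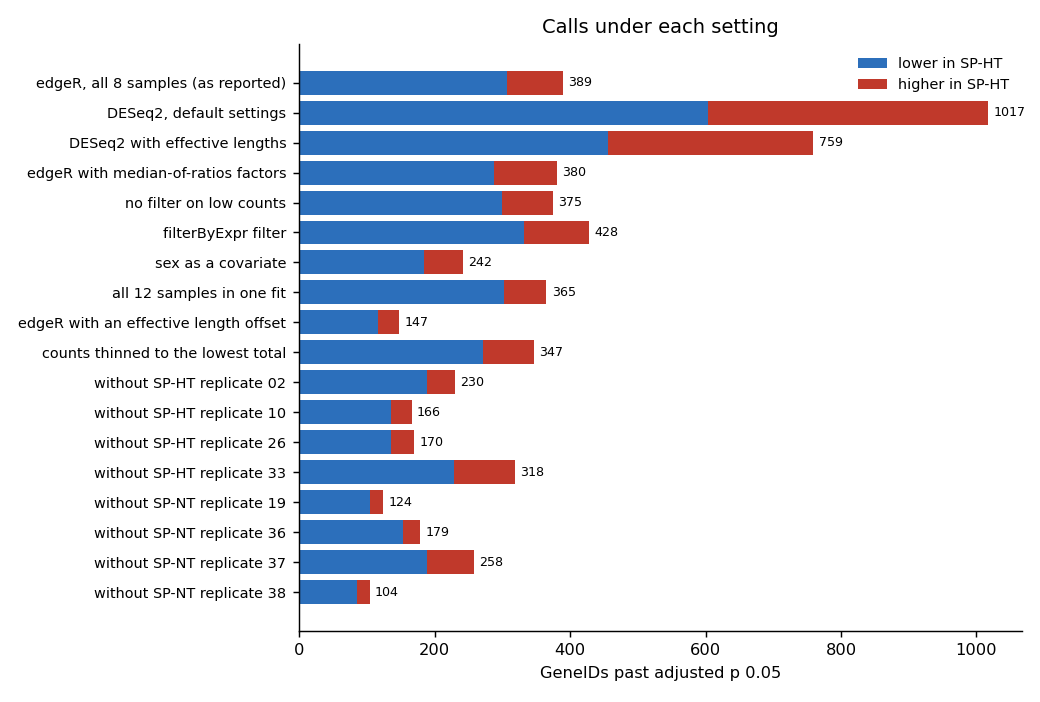
Number of GeneIDs past an adjusted p of 0.05, higher and lower in SP-HT, with all 8 samples in edgeR (389) and under each other setting. Counts run from 104 without SP-NT replicate 38 to 1017 in DESeq2.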

How the data were processed

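Hypothalamic mRNA of 12 hamsters was sequenced, and the 4 SP-HT and 4 SP-NT samples were compared. The authors trimmed reads with Trim Galore 0.6.6 after FastQC 0.11.9, assembled a transcriptome from all samples, grouped transcripts by best mouse match (GRCm39) under a GeneID, and quantified each sample with Bowtie 1.3.0 and RSEM 1.3.1. The deposited expected count is RSEM's unnormalized number of fragments per GeneID. The deposited TPM is the same quantity per length, scaled to a common total. The deposited effective length is in bases, per GeneID and sample.

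Expected counts were rounded to whole numbers, and GeneIDs with a sum of at least 10 over the 8 samples were tested in R 4.3.3 by edgeR 4.0.16 (TMM, quasi-likelihood test), with p adjusted by Benjamini-Hochberg and a threshold of 0.05. CPM values use TMM factors over all 12 samples. The steps were tested on simulated data with changes planted in GeneIDs above a minimum mean count. Changes as small as many of those called here were not planted, so the simulation does not cover them. Alternatives were DESeq2 1.42.0 with and without effective lengths, median-of-ratios factors, no filter, filterByExpr, labelled sex as a covariate, all 12 samples in 1 fit, an effective length offset, counts thinned to the lowest total, and each hamster left out.

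GeneIDs were named when called with a mean of at least 1 CPM and among the 10 with the highest or lowest log2 fold change, when among the 5 with the smallest p in either direction, or when called members of a pathway, together with uncalled genes of the study's lists. GeneIDs 77805, 15278, 331416 and 98386 and the genes Id2, Junb, Fosb, Ppp1cc and Gpr50 were chosen after their values were seen. The files pair no symbols with GeneIDs, so lists of symbols and cell type markers without printed values could not be applied. Names were attached through the values printed in the study's lists, where size of log2 fold change (tolerance 0.0051) and adjusted p (tolerance 0.0006) in DESeq2 with effective lengths fitted 1 GeneID, without the sign in torpor, which the lists write the other way round from SP-HT over SP-NT by the labels. A named gene's size of change in that setting was thus used for its name and is not independent evidence. Of 68 genes listed, 59 were matched and 9 were not. Rbm3-ps and Egln1 come from the study's account of its largest changes and were attached by size to 1 decimal among GeneIDs called in that setting with a log2 change over 2, where each fitted 1 GeneID. Pathways come from a Reactome table for mouse Entrez GeneIDs distributed with an installed R package. Members and lists were chosen with earlier results of these data known, and the pathway titles and the rule for strong pathways after values were seen. Of the 32 pathways chosen by title, 1 is not reported here.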

Additional observations from a re-analysis of the deposited data

Results flagged for a closer look

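Among 252 groups of 4 values looked at for named genes, 12 held a hamster far from the other 3. Chance alone gives about 1 in 20 such groups. In SP-HT this was GeneID 53623 in replicate 33, with 67.4 CPM beside 77.3 to 78.4 CPM.

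In SP-NT, GeneID 238323 had 0.647 CPM in replicate 37, beside 0.986 to 1.04 CPM in the others. Replicate 19 had 0.944 CPM of GeneID 17330, beside 1.17 CPM in the others, and 33.5 CPM of GeneID 66641, beside 30.0 to 30.3 CPM. Replicate 36 had 11.7 CPM of GeneID 72103, beside 13 to 13.2 CPM.

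In LP-NT, replicate 01 stood apart in 4 genes. It had 6.29 CPM of GeneID 26446 (4.48 to 4.69 in the others), 92.0 CPM of Bhlhe40 (73.9 to 75.2), 111 CPM of Glut3 (98.9 to 101) and 98.8 CPM of GeneID 12747 (63.6 to 67.0). Replicate 02 had 67.6 CPM of GeneID 75605 (74.8 to 75.4) and 11.6 CPM of GeneID 13388 (12.9 to 13.1). Replicate 03 had 11.5 CPM of GeneID 15490 (9.82 to 10.0).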

How the results depend on the processing

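The 389 called GeneIDs became 1017 in DESeq2 (413 higher and 604 lower, beside 82 and 307), 759 in DESeq2 with effective lengths (303 and 456), 242 with labelled sex as a covariate (58 and 184) and 147 with an effective length offset (31 and 116). The cause was not tested. Of the 389, these settings called 386, 314, 227 and 128, none with another sign, and every direction here is by the labels. The count was within 1.5 times of 389 with median-of-ratios factors (380), no filter (375 of 17005 tested), filterByExpr (428 of 14820 tested), all 12 samples in 1 fit (365) and thinned counts (347). No setting moved the median of all GeneIDs by 0.1.

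Leaving out 1 hamster gave between 104 and 318 calls, with fewer samples. The count fell by more than 1.5 times without SP-HT replicate 02 (230), 10 (166) or 26 (170) and without SP-NT replicate 19 (124), 36 (179), 37 (258) or 38 (104).

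The tally here covers 84 of the named genes. It leaves out others, among them the genes chosen after their values were seen, some of which were called. Of the 84 genes 75 were called, and over the alternatives the 84 gave 1428 values. Of these 1058 kept their direction and side of the threshold, 358 kept their direction but lost their call, 5 gained one and 7 changed sign. Of the 75 called genes 23 were called in every alternative and 26 in every fit with 1 hamster left out. Among these 75, only GeneID 53623 changed sign, from 0.28 to -0.03 in DESeq2 with effective lengths and -0.03 with an effective length offset. Fos, at 0.03 and not called, was at -0.01 with sex as a covariate. With 1 hamster left out it ran from -0.05 to 0.17, and it was at or below 0 when that was SP-HT replicate 10 (0.00) or 33 (-0.01) or SP-NT replicate 37 (-0.03) or 38 (-0.05). The cause was not tested.

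No paired analysis was possible because SP-HT and SP-NT hamsters share no replicate number and the labels give no pairs. Depth limited the records at few counts, where 1 count is worth up to 0.0495 CPM.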
